A study of Mus musculus with 6 samples.

Results

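The sites described here are the 5242 autosomal ZFP57 peaks of the mouse embryonic stem cell (ESC) line JB1 at which KAP1 was found in both hybrid lines, JB1 and BJ1, whereas ZFP57 was found in JB1 alone. They were chosen by position from the peak lists: a JB1 ZFP57 peak was taken when it shared at least 1 bp with a JB1 KAP1 peak and with a BJ1 KAP1 peak, and shared no base with a BJ1 ZFP57 peak. They made up 53.3% (95% exact interval 52.3 to 54.3%) of the 9831 autosomal JB1 ZFP57 peaks. Of the other JB1 ZFP57 peaks, 523 had ZFP57 and KAP1 in both lines, 3718 had no KAP1 peak in either line, 269 had KAP1 in JB1 only, and the remaining combinations held 57, 12, 8 and 2 peaks. The presence or absence of a peak in each list was therefore the rule itself and is no result, and widths, gene context, spacing and sequence are given as descriptions.

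JB1 and BJ1 are male F1 hybrid ESC lines with the same parental strains in opposite roles. In JB1 the maternal genome was from JF1 and the paternal one from B6, and in BJ1 it was the other way round; the sample labels name no transgene, knockout or treatment for either line. Each line gave 1 ZFP57 and 1 KAP1 ChIP-seq library, so no difference between the lines can be set against a replicate, and differences between lines cannot be told apart from differences between libraries. The lists held 10667 JB1 ZFP57, 1318 BJ1 ZFP57, 38713 JB1 KAP1 and 72535 BJ1 KAP1 peaks. They give positions in mm9 on a grid of 150 bp windows, with no height or read count, and the depth of each library is unknown. The absence of a BJ1 ZFP57 peak at a site means that none was called there in the much shorter BJ1 list, not that ZFP57 was shown to be absent. The peak lists hold no expression values, and the ESC identity of the lines could not be checked against marker genes.

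ZFP57 is a zinc-finger protein with a KRAB domain, which recognises the hexamer TGCCGC, preferably with a methylated CpG, and which is best known for keeping the methylation of imprinting control regions in ESCs. KAP1, also called TRIM28, is the co-repressor that KRAB zinc-finger proteins recruit, and it brings in enzymes that place the repressive mark H3K9me3. KAP1 is also known in ESCs for silencing endogenous retroviruses and other repeated elements, to which it is led by many different KRAB zinc-finger proteins.

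The sequence that recurred most often in the sites was a word of 16 bases, ttTGCCGCagaagatt, whose centre holds the hexamer. It was present in 2754 of the 5242 sites (52.5%, interval 51.2 to 53.9%). A window of 120 bases around it is shown for the first 450-bp site with a single copy, outside annotated exons, on chromosomes 1, 2 and 3, to show how far the sequence is shared; each is printed in the direction of the word, with TGCCGC in capitals.
chr1:5545425-5545544, plus strand: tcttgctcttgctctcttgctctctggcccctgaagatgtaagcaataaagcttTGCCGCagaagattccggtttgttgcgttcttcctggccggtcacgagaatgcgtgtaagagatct
chr2:3400784-3400903, minus strand: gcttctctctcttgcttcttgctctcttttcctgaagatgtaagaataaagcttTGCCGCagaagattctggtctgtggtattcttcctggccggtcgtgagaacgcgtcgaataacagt
chr3:4725141-4725260, minus strand: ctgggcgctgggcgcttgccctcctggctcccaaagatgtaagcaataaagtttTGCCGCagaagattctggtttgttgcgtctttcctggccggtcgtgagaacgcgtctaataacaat
The windows lay in intergenic sequence 32.9 kb from a transcription start site (TSS) of Oprk1, 6.33 kb from one of Hspa14 and 487 kb from one of Gm10748. The JB1 KAP1 peak over the site was 750, 1200 and 2850 bp wide in turn, and the BJ1 KAP1 peak 600, 600 and 2700 bp.

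Sites without this word were searched for the next most frequent one, and so on while a word was shared by at least 100 of the remaining sites, which gave 5 further groups. They are shown because each stands for more than 200 sites; here the capitals mark the shared 16 bases, and the windows come from the first 450-bp site on chromosome 1 that met the same conditions.
The second group, 470 sites, chr1:18243175-18243294, minus strand: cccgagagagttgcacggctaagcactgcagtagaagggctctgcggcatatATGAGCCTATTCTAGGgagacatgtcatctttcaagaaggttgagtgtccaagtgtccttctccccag
The third group, 255 sites, chr1:8650407-8650526, plus strand: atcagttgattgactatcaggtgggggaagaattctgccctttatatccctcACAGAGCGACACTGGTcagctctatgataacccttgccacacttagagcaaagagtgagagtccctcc
The fourth group, 234 sites, chr1:58874346-58874465, minus strand: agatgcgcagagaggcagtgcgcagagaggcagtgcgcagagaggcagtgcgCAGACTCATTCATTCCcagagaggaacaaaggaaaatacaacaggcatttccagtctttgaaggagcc
The fifth group, 214 sites, chr1:27999378-27999497, minus strand: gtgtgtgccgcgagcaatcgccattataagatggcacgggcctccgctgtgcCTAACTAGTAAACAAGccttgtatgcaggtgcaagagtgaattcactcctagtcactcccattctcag
The sixth group, 207 sites, chr1:5554935-5555054, minus strand: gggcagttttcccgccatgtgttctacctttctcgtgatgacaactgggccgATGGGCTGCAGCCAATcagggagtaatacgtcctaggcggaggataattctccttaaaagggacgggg
The word of the sixth group was also found in 2124 sites of the first group, so that these groups are not separate kinds of sequence. The remaining 1108 sites (21.1%) held none of the 6 words. No annotation of repeats was used, and the groups are not assigned to a repeat family here.

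TGCCGC itself, on either strand, was present in 4137 sites (78.9%, interval 77.8 to 80.0%). Among sites of 450 bp, where width plays no part, the share was 78.2% of 1915 sites, against 2.76% of the 5318885 windows of 450 bp into which the autosomes were divided. The share was 87.1% of the 70 sites of that width with ZFP57 and KAP1 in both lines, 42.6% of the 108 sites with KAP1 in JB1 only, and 1.24% of the 1050 sites without KAP1 (interval 0.661 to 2.11%). The hexamer was thus rarer in the sites without KAP1 than in windows of the genome, whereas it was common in the sites described here. At other widths the sites described here held it less often than those bound in both lines: at 300 bp in 66.4% (interval 63.2 to 69.4%) against 18 of 18 (interval 81.5 to 100.0%), and at 600 bp in 82.8% (interval 80.8 to 84.8%) against 92.4% (interval 86.8 to 96.2%). At 450 bp the intervals of 76.3 to 80.0% and 77.0 to 93.9% overlapped. The related hexamer GGCCGC was found in 628 sites, and either hexamer in 85.9%.

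Most sites with the hexamer held it once. A single TGCCGC was found in 3518 sites, 2 in 492 and 3 in 114, and 13 sites held 4 or more. Sites with at least 2 copies were 11.8% of the sites described here and 44.0% of the 523 sites of both lines. Of the 619 such sites, 125 (20.2%, interval 17.1 to 23.6%) had a pair of copies with starts less than 38 bp apart, compared with 43.9% of 230 among the sites of both lines. The sites of both lines were wider, with a median of 750 bp, which moves with the number of copies; among sites of 450 bp, 4.60% of the sites described here and 12.9% of the 70 sites of both lines held 2 or more.

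The 2 sites with the most copies held none of the 6 recurring words. The site with 10 copies lay at chr2:26503501-26504100, in intergenic sequence 13.8 kb from a TSS of Fam69b, in a run of short tandem repeats; the copies are on the minus strand and read GCGGCA in capitals.
chr2:26503635-26503834, plus strand: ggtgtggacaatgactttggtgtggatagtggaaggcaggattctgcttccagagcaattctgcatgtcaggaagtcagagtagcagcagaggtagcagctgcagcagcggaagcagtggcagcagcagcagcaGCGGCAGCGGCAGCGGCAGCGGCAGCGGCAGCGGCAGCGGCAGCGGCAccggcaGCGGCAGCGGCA
The site with 6 copies, chr7:135831151-135832350, lay at an internal promoter of Inpp5f, a gene with an imprinted transcript, and its densest 200 bases held copies on both strands.
chr7:135831320-135831519, plus strand: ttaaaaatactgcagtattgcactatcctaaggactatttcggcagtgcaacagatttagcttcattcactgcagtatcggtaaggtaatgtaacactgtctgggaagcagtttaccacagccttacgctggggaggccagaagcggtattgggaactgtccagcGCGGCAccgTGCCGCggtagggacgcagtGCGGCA
Their KAP1 peaks were 900 and 1350 bp wide in JB1, and 750 and 1050 bp wide in BJ1. The third, with 5 copies, was at chr10:54606301-54607500, 811 kb from the nearest protein-coding TSS, that of Man1a, and belonged to the fifth group.

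The sites were made largely of repeated sequence. For each site, the 50-base words it contains, the length of the sequenced reads, were counted over the genome, and the median share of words that occur once was 18.0%. Under 50% of the words were unique in 4400 sites (83.9%), and all were unique in 144 (2.75%). In contrast, all words were unique in 144 of the 523 sites bound in both lines (27.5%) and in 1301 of the 3718 sites without KAP1 (35.0%). Reads from repeated words fit several places of the genome equally well, and how such reads were treated is not given in the sources used here. The part of read placement in the peaks of either line was not tested, so the values below are given for unique and repeated sites where they differ.

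The leading word occurred 6404 times on the autosomes, and nearly every copy lay under KAP1: 6189 copies (96.6%) were inside a JB1 KAP1 peak, 5969 (93.2%) inside a BJ1 KAP1 peak and 5892 inside one of each. ZFP57 divided the copies more evenly. The sites described here held 2764 of them (43.2%, interval 41.9 to 44.4%), whereas 2896 (45.2%) had KAP1 in both lines and no ZFP57 peak in either, and 138 (2.15%) were in no peak. ZFP57 peaks of both lines held 179 copies, and BJ1 ZFP57 peaks alone held 48. The copies in the sites had a median JB1 KAP1 width of 2250 bp, against 1200 bp for copies with KAP1 in both lines and no ZFP57, and the medians were the same in BJ1. Unique words made up a median of 34.7% of the sequence within 250 bp of the copies in the sites, and 42.6% at copies with KAP1 and no ZFP57.

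**Figure D1:**
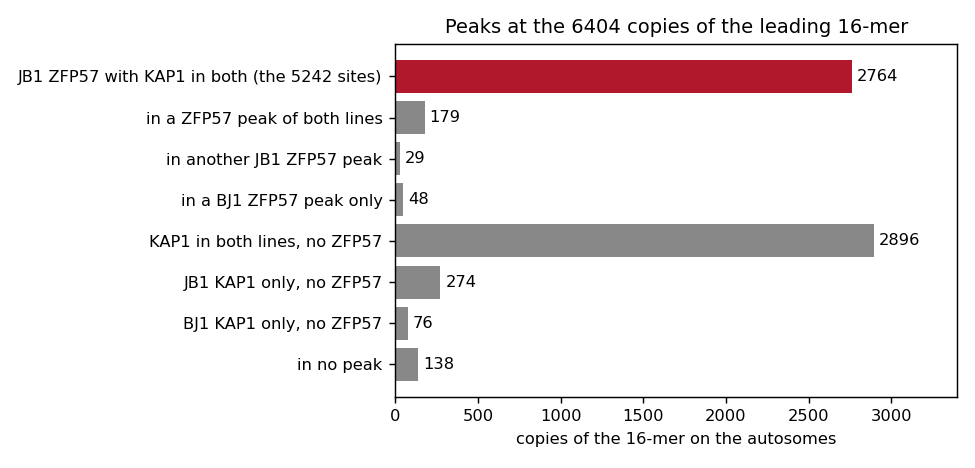
Number of autosomal copies of the leading 16-base word (x axis) by the peaks that contain them (y axis), for all 6404 copies. The copies in the sites described here (red, 2764) and those with KAP1 in both lines but no ZFP57 peak (2896) make up most of the copies.

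In the 2744 sites with a single copy, the surrounding sequence and peaks were read in the direction of the word. The most common base was shared by 58.3% of sites on average in the 100 bases on either side, and by 29.7% at distances of 1 to 3 kb. Agreement at fixed distances from the word was thus high only over a short stretch. Sequence shared at varying distances is missed by this count, and 2124 sites of the first group also held the word of the sixth. The ZFP57 peak reached a median of 273 bp upstream and 225 bp downstream of the word, that is, the word lay near its middle. The JB1 KAP1 peak reached a median of 519 bp upstream and 484.5 bp downstream, with upper quartiles of 1028 and 2227 bp, and the BJ1 KAP1 peak reached 492 and 445 bp, with upper quartiles of 1119.5 and 2076 bp. The long KAP1 peaks thus extended further on the downstream side in both lines. At 2 kb downstream, 33.2% of the copies were still under the JB1 KAP1 peak and 28.0% under the BJ1 KAP1 peak, against 16.9 and 18.7% at 2 kb upstream. Copies with KAP1 but without ZFP57 had no such excess, with 13.4% under JB1 KAP1 at 2 kb downstream and 18.3% at 2 kb upstream.

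**Figure D2:**
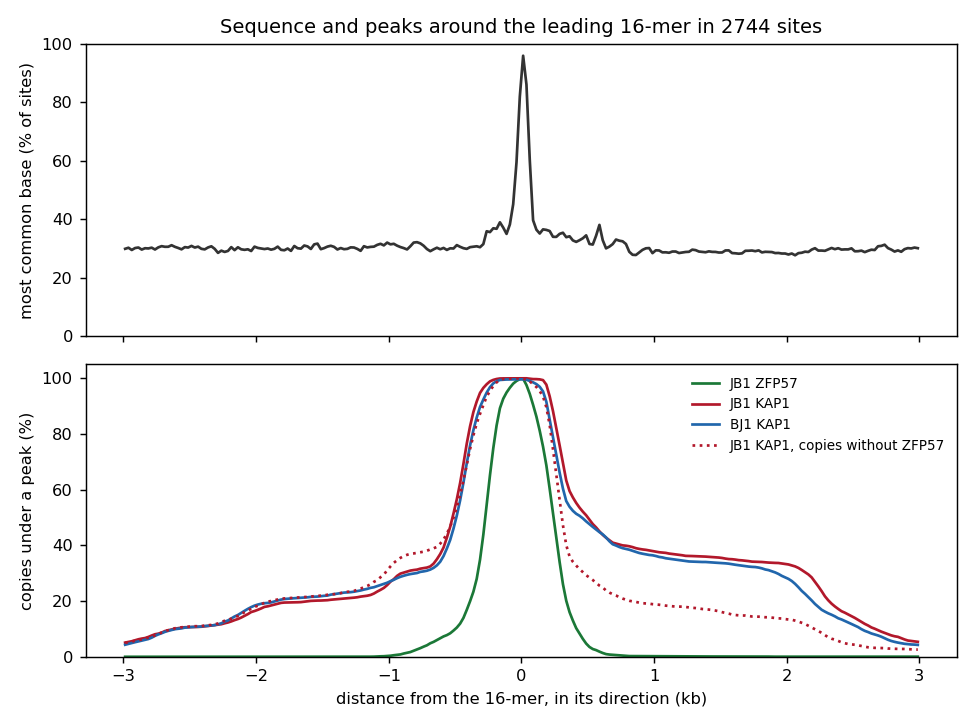
Top, percentage of 2744 sites with the most common base (means over 25 bp) against the distance from the leading word in kb. Bottom, percentage of these copies under JB1 ZFP57, JB1 KAP1 and BJ1 KAP1 peaks, and of the 2896 copies without ZFP57 under JB1 KAP1 (dotted). Agreement at fixed distances is high only in the vicinity of the word, which does not exclude sequence shared at varying distances. ZFP57 is centred on the word, and KAP1 reaches further downstream at the sites than at copies without ZFP57.

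The ZFP57 peaks themselves were narrow. The median width was 450 bp, with quartiles of 450 and 600 bp. Widths of 300, 450 and 600 bp were found for 913, 1915 and 1405 sites, and 30 sites reached 1500 bp or more. The sites without KAP1 had a median of 300 bp. The widest site, chr1:85033351-85044000, covered 10650 bp at a promoter of Gm7582, overlapping C130026I21Rik as well, of which 600 bp were under KAP1 in each line. The next in width were 2 sites of 5700 bp. The one at chr1:173411251-173416950, 16.7 kb from a TSS of Refbp2, lay wholly under KAP1 peaks of 9300 bp in JB1 and 9000 bp in BJ1, whereas the one at chr14:44009701-44015400, at a promoter of Gm17154, lay wholly under KAP1 of 7200 bp in JB1, but only 1800 bp of it were under the 2250 bp of KAP1 in BJ1. Broad sites near Zfp42 (chr8:44403151-44405850), 10.8 kb from its TSS, and in an intron of Grk5 (chr19:61007251-61009950) were each 2700 bp wide, with KAP1 peaks of 9000 bp in both lines. The other 5 of the 10 widest sites, nearest to the TSSs of Gm10377, Akap1, Nupl2, Ap1m1 and Ugt1a5, were 2250 to 4050 bp wide. Zfp42 encodes REX1, a marker of pluripotent cells, and Grk5 a kinase of G-protein-coupled receptors.

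KAP1 peaks at the sites were broad, and their widths had more than 1 mode. The median was 2100 bp in JB1 (quartiles 900 and 2850 bp) and 1950 bp in BJ1 (quartiles 900 and 2700 bp), and 59.7% of sites in JB1 and 58.0% in BJ1 had a KAP1 peak of at least 1500 bp. Over all 31173 autosomal JB1 KAP1 peaks that were found in BJ1, the median was 750 bp in both lines. At the sites of both lines it was 1200 bp in JB1 and in BJ1, and at the sites with KAP1 in JB1 only it was 600 bp. The classes differ in how much of their sequence is repeated: among sites with under 50% unique words, those bound in both lines had medians of 2400 bp in JB1 and 2250 bp in BJ1, the same as the sites described here, and 64.8 and 66.6% reached 1500 bp in JB1. Widths from 600 up to 900 bp were held by 16.5% of the sites in JB1, widths from 1800 to 2100 bp by 3.38%, and widths from 2700 to 3000 bp by 12.6%; the wider range from 1200 to under 2400 bp still held 1217 sites (23.2%). A wide KAP1 peak is more likely to cover a given site than a narrow one, and it can cover several: 710 of the 4418 JB1 KAP1 peaks at the sites covered 2 or more of them.

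**Figure D3:**
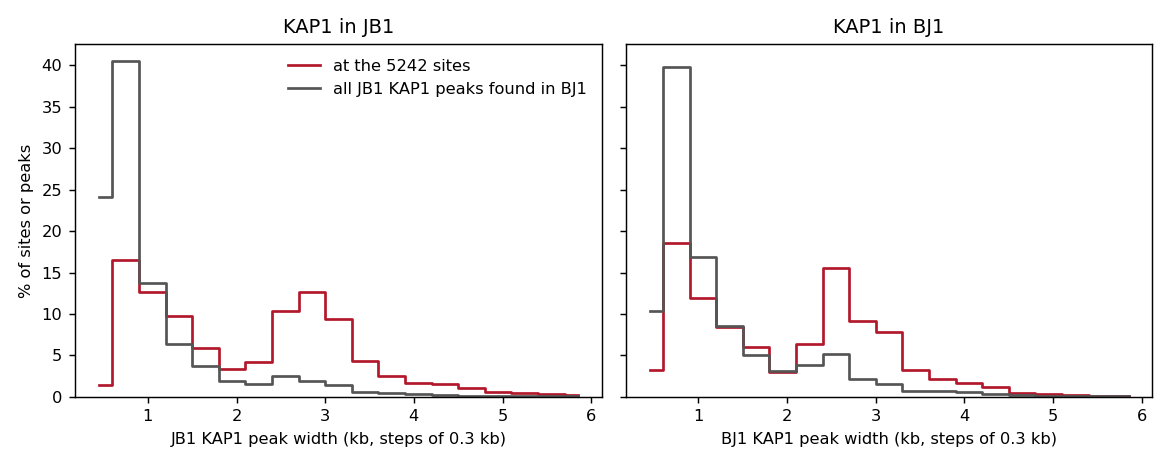
Percentage of sites (red) and of all JB1 KAP1 peaks found in BJ1 (grey) against KAP1 peak width in kb, in steps of 300 bp, for JB1 (left) and BJ1 (right). Both lines show a mode below 1 kb and a second one between 2 and 3 kb at the sites. The grey line has a smaller rise in that range as well, with 2.48% in JB1 and 5.17% in BJ1 at the step from 2400 bp.

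The width of KAP1 differed by sequence group. The median JB1 KAP1 width was 2700 bp in the third and the fourth groups, and 97.6 and 98.3% of their sites had a JB1 KAP1 peak of 1500 bp or more. It was 2400 bp in the second group and 2250 bp in the first, where 60.9% of the sites reached 1500 bp. The fifth group stood apart with 900 bp in JB1 and 750 bp in BJ1, and 12.6% of its sites reached 1500 bp in JB1. Sites of no group had a median of 1200 bp in both lines. The hexamer did not follow the same order: it was present in 95.1% of the second group, 93.0% of the fifth, 59.2% of the third and 0.855% of the fourth, which is 2 of 234 sites. The sixth group had 32.4%, but its word was held by 2380 sites in all, and the 2124 of them counted in the first group had the hexamer by definition. The fourth group had ZFP57 peaks and some of the broadest KAP1 peaks almost without the hexamer in the sites themselves. However, 87.2% of its sites had another site within 10 kb, and 183 neighbouring pairs joined it to the first group. A wide KAP1 peak can cover several sites, so its width does not belong to the sequence of 1 site alone.

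BJ1 and JB1 KAP1 peaks were of equal width, counted in 150 bp windows, at 1380 sites (26.3%), and 3942 sites (75.2%) differed by less than 1.5 times. The BJ1 peak was at least 1.5 times as wide at 518 sites (9.88%, interval 9.09 to 10.7%), and the JB1 peak at 782 sites (14.9%, interval 14.0 to 15.9%). Over all JB1 KAP1 peaks found in BJ1, these shares were 28.2% and 3.92%, but the count there is by peak, with all BJ1 peaks under a JB1 peak added up. When the JB1 KAP1 peaks at the sites were counted in the same way, each once, BJ1 was wider by this fold at 557 of 4417 (12.6%, interval 11.6 to 13.6%) and JB1 at 172 (3.89%, interval 3.34 to 4.51%). At this fold, JB1 was thus the wider line more often when sites were counted, and BJ1 when peaks were counted. With no minimum fold, JB1 was the wider line in both counts: by peak it was wider at 1825 of 4417 (41.3%) and BJ1 at 1311 (29.7%), where all JB1 KAP1 peaks found in BJ1 gave 20.3% and 52.5%. The share of peaks at which BJ1 was wider by the fold was lower than the 28.2% of all peaks in either count.

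That lower share varied with the width of the JB1 peak. Among JB1 KAP1 peaks under 750 bp, BJ1 was at least 1.5 times as wide at 11.2% of the 400 peaks with a site and at 39.9% of the 14679 peaks without a JB1 ZFP57 peak. From 750 to under 1500 bp the shares were 20.9% of 1686 and 22.2% of 9331, and their intervals overlapped. From 1500 to under 2250 bp the peaks with a site had the higher share, 19.5% of 527 against 14.3% of 1360. The intervals there, 16.243 to 23.192% and 12.448 to 16.237%, all but touched. From 2250 to under 3000 bp the peaks with a site had the lower share, 3.64% of 1017 against 7.62% of 604. From 3000 bp the shares were 2.41% of 787 and 3.92% of 306, and their intervals overlapped. The JB1 peak was wider by the fold less often at the widest peaks with a site, 0.492% against 2.81% from 2250 to under 3000 bp and 1.27% against 6.21% from 3000 bp, while below 2250 bp the intervals of the shares overlapped. The BJ1 KAP1 list is the longer of the pair, and the part of the library in these widths was not tested.

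KAP1 widths differed several-fold at the most unequal sites. BJ1 exceeded JB1 by the largest ratio, 6.33, at chr16:49486801-49487250, 189 kb from a TSS of Gm5407, where KAP1 was 450 bp wide in JB1 and 2850 bp in BJ1. In an intron of Ptprt, which encodes a receptor tyrosine phosphatase, the site at chr2:162422401-162422850 had 450 and 2400 bp. Both of these sites were 450 bp wide and lay wholly under JB1 KAP1. The BJ1 KAP1 peak covered only 300 bp of the site near Gm5407 and 150 bp of that in Ptprt. In an intron of Zfp445, itself a KRAB zinc-finger gene with a role in imprinting, the site at chr9:122764201-122764500 had 900 and 4200 bp. In the other direction, KAP1 was 7050 bp wide in JB1 and 600 bp in BJ1 in an intron of Poteg (chr8:28581451-28582050), and 7350 and 900 bp in an intron of Luzp2 (chr7:62200801-62201400).

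Some sites stood close to the edges of the rule. The site lay wholly under KAP1 of both lines in 4809 cases (91.7%), while the JB1 KAP1 peak covered a single 150 bp window of it in 16 cases and the BJ1 KAP1 peak in 76. A BJ1 ZFP57 peak lay within 1000 bp of 33 sites and within 10 kb of 245. At 6 sites it stood in the adjoining window, so that no base was shared and no gap remained; among them was the site at chr2:154952401-154953150, 6.1 kb from a TSS of Itch, with KAP1 peaks of 2850 bp in both lines. On the other side of the rule, 101 of the 269 sites counted as lacking BJ1 KAP1 had a BJ1 KAP1 peak within 1000 bp. Of the JB1 ZFP57 sites with JB1 KAP1 and without BJ1 ZFP57, 5242 of 5511 (95.1%) had BJ1 KAP1, where 86.2% of all autosomal JB1 KAP1 peaks did; the rule used this overlap, and nothing is read from it.

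The sites lay mostly far from genes. By GENCODE M1, 4118 sites (78.6%, interval 77.4 to 79.7%) were intergenic, 966 (18.4%) intronic, 98 (1.87%) within 1 kb of a TSS, 40 (0.763%) over coding sequence, 9 over an untranslated region and 11 over another exon. The sites bound in both lines were intergenic at 56.6% (interval 52.2 to 60.9%), promoter-proximal at 8.03% and over coding sequence at 10.5%. Among sites with under 50% unique words the classes were closer. There, 72.6% (interval 66.4 to 78.3%) of the 230 sites of both lines and 80.0% (interval 78.8 to 81.2%) of the sites described here were intergenic, 1.74 and 1.43% were at a promoter, and 0.870 and 0.136% lay over coding sequence. The sites without KAP1 were intergenic at 65.7%. The median distance to a protein-coding TSS was 68.0 kb for the sites described here, 26.9 kb for the sites of both lines and 69.8 kb for the sites without KAP1. In all, 734 genes had a site in the gene body, 487 of them a single one.

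Sequence that is unique in the genome gave another picture. Of the 144 sites whose 50-base words were all unique, 29 (20.1%, interval 13.9 to 27.6%) lay over coding sequence, against 6 of the 4400 sites with under 50% unique words (0.136%, interval 0.0501 to 0.297%). Promoters accounted for 13 of the unique sites (9.03%) and intergenic sequence for 60 (41.7%). Their KAP1 peaks were narrow, with medians of 750 bp in JB1 and 600 bp in BJ1, and 8 of them (5.56%) reached 1500 bp in JB1. In the repeated sites the medians were 2400 and 2250 bp, and 66.6% reached 1500 bp. TGCCGC was present in 84.0% of the unique sites (interval 77.0 to 89.6%) and in 77.8% of the repeated ones (interval 76.5 to 79.0%), and the BJ1 KAP1 peak was at least 1.5 times as wide as that of JB1 in 9.72 and 10.5%. In the 698 sites between these classes, the hexamer was present in 85.0% (interval 82.1 to 87.5%), and BJ1 KAP1 was wider by the fold in 5.73% (interval 4.13 to 7.72%), below the 10.5% of the repeated sites (interval 9.65 to 11.5%). The unique sites bound in both lines had medians of 1050 bp in JB1 and 900 bp in BJ1, and 29.2% of them lay over coding sequence.

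**Figure D4:**
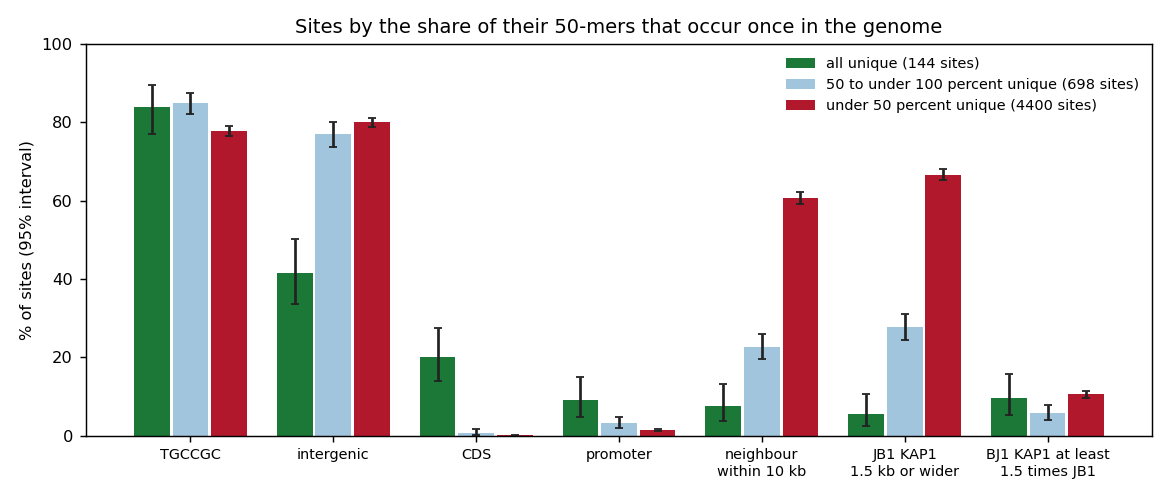
Percentage of sites (y axis, bars, with 95% exact intervals for counting error) that hold a feature (x axis), for sites whose 50-base words are all unique (144), unique at 50 to under 100% (698) and unique at under 50% (4400). Coding sequence and promoters are commonest in unique sites, and clustered sites with wide KAP1 peaks in repeated ones.

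Of the 29 unique sites over coding sequence, 4 are given, picked after their values were seen. The site at chr11:21906751-21907350 lay in Ehbp1, which encodes a protein that binds EH-domain proteins, 3.85 kb from a TSS of the homeobox gene Otx1, with 2 copies of the hexamer and KAP1 peaks of 1050 bp in JB1 and 1500 bp in BJ1. The site at chr1:140736451-140737050 in Lhx9, a LIM homeobox gene, had 1 copy and KAP1 of 600 and 750 bp. The site at chr12:47801401-47801700 in Nova1, which encodes a neuronal splicing factor, had 2 copies and KAP1 of 600 and 450 bp. Lta4h, the gene of leukotriene A4 hydrolase, held 4 copies in a site of 750 bp at chr10:92934001-92934750, with KAP1 of 900 bp in both lines.

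Of the 98 sites within 1 kb of a TSS, 42 were at protein-coding genes, from which the examples were picked in the same way. The promoter sites of Kif3a (a kinesin motor), Hoxb3, Celsr2 (a cadherin of planar cell polarity) and Tanc1 (a synaptic scaffold) each had KAP1 peaks of 600 bp in both lines. Rcvrn, which encodes the photoreceptor protein recoverin, had 750 bp in JB1 and 600 bp in BJ1. Pld1, a phospholipase D gene, had 2 sites at a promoter under the same 2700-bp JB1 KAP1 peak, with BJ1 KAP1 peaks of 1950 and 1050 bp. Svil, which encodes the actin-binding protein supervillin, had KAP1 of 4350 bp in JB1 and 4200 bp in BJ1.

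Imprinted genes, the best known targets of ZFP57, accounted for few of these sites in number, although the share of imprinted genes with a site was not low. The rule leaves out sites with a BJ1 ZFP57 peak, and the paper reports known imprinting control regions among the peaks found in both lines. The small number follows in part from the rule and is not read as a result. Of 58 imprinted genes found in the annotation, 5 had a site in the gene body (8.62%, interval 2.86 to 18.98%) and 7 within 10 kb (12.1%, interval 4.99 to 23.3%). Of the 21281 protein-coding genes on autosomes, 2.97% and 5.44% did, and both values lie within those intervals. The list was drawn up with earlier results of these data known. The genes were Inpp5f, described above, and Gnas, Cmah, Peg10 and Zim1, while Nespas and Sgce were within 10 kb of the sites in Gnas and Peg10. The Gnas locus encodes the stimulatory G-protein subunit, and its site, chr2:174125101-174125400, lay over coding sequence with unique words throughout and 2 copies of the hexamer, shown in capitals.
chr2:174125117-174125236, plus strand: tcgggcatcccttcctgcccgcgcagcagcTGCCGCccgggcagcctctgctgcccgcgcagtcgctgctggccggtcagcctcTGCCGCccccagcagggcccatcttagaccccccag
KAP1 was 450 bp wide there in JB1 and 900 bp in BJ1. The site in Peg10, a retrotransposon-derived gene expressed from the paternal allele, was at chr6:4705801-4706250 over coding sequence, with KAP1 of 1050 bp in JB1 and 900 bp in BJ1 and no TGCCGC. The site in Zim1, a maternally expressed zinc-finger gene, was at chr7:6630451-6630750, also over coding sequence, with 1 copy and KAP1 of 900 and 600 bp. Cmah, an enzyme gene of sialic acid synthesis, had an intronic site at chr13:24482851-24483150 with KAP1 of 600 and 450 bp, and a second at chr13:24562351-24562800 over an untranslated region, with the leading word and KAP1 of 750 and 600 bp.

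Of 24 genes of the pluripotency network, 0 had a site within 10 kb (interval 0.0 to 14.2%), and the 5.44% of all protein-coding genes lies within that interval. Of 28 genes of DNA methylation and repression, 2 did (7.14%, interval 0.877 to 23.5%), Zfp445 and Suv39h2, a histone H3K9 methyltransferase gene, and the site near Suv39h2 is that shown above from chromosome 2. Of 24 germline genes silenced by methylation, 1 did (4.17%, interval 0.105 to 21.1%): Mov10l1, which encodes a helicase of the piRNA pathway, had 2 intronic sites (chr15:88867201-88867800 and chr15:88869901-88870500) under a KAP1 peak of 4200 bp in each line. Of 16 genes of the 2-cell stage, Eif1a and Zscan4b had sites within 10 kb (12.5%, interval 1.55 to 38.3%), and Zscan4b had 3, at 598, 4402 and 6052 bp from the gene, with JB1 KAP1 widths of 900, 1050 and 1650 bp.

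Of 356 numbered Zfp genes, the largest list, 11 had a site in the gene body and 25 within 10 kb (7.02%), near the 5.44% of all protein-coding genes. Zfp69, Zfp277 and Zfp933 had 2 sites each in the gene body, and those of Zfp277 both held the leading word. Zfp180 and Zfp668 had a site over coding sequence. Among 39 Hox genes, which pattern the body axis, Hoxb3 had the site at its promoter, at chr11:96190201-96190650, and Hoxb4 lay 7249 bp from it. That site held 2 copies of the hexamer on the minus strand, in capitals, in unique sequence.
chr11:96190417-96190536, plus strand: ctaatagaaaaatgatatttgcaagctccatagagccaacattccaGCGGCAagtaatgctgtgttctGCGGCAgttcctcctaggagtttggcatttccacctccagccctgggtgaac
Of 25 clustered protocadherin genes, which give neurons their identity at the surface, Pcdha11 had a site in the gene body and Pcdhb8 one at 7487 bp.

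The genes with the most sites in the gene body were long. Gpc6, which encodes a glypican of the cell surface, had 7 over 1054 kb. Hs6st3, a heparan sulfate sulfotransferase gene, had 6 over 731 kb, and 2210408I21Rik had 6 over 478 kb. Mctp1, Alk, Pcdh15, Arfip1, Kcnn2, A830018L16Rik, Gm16889 and Gm20388 had 5 each over 417 kb or more. In contrast, Qrsl1, which encodes a subunit of a mitochondrial amidotransferase, had 5 sites within 27.6 kb, and Zcwpw1, a histone reader of germ cells, had 5 within 34.8 kb.

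The sites stood in groups along the chromosomes. A neighbouring site within 10 kb was found for 2838 sites (54.1%, interval 52.8 to 55.5%), against 7.27% of the sites bound in both lines, which are fewer and stand a median of 3048 kb apart, and 9.20% of the sites without KAP1, which stand 323 kb apart; the sites described here stood a median of 181 kb apart. The sites formed 836 pairs, 272 groups of 3, 76 of 4, 8 of 5 and 1 of 6, and 2404 sites stood alone. Clustering differed by sequence group: 87.2% of the sites of the fourth group and 83.1% of the third had a neighbour, 57.8% of the first, 33.2% of the fifth and 29.2% of the sites of no group. Only 7.64% of the unique sites had one, against 60.7% of the repeated sites. The density ranged from 1.78 sites per Mb on chromosome 11 to 2.52 on chromosome 14, although chromosome 14 gave the lowest share of JB1 ZFP57 peaks that met the rule, 40.5%.

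Close neighbours were mostly less than 7 kb apart. Centres of adjacent sites were under 1 kb apart in 354 cases and 1 to 2 kb apart in another 354, the steps of 1 kb from there up to 7 kb held 114 to 218 pairs, and 7 pairs were 7 to 8 kb apart; from there up to 20 kb no step of 1 kb held more than 14 pairs. Copies of the leading word were then paired with the next copy along the chromosome that lay in another of the sites, whether or not sites without the word stood between them. Of these successive pairs, 579 were less than 10 kb apart, and 567 of them (97.9%, interval 96.4 to 98.9%) read in the same direction. From 10 to 100 kb, 97 of 208 (46.6%, interval 39.7 to 53.7%) did. The distances of close pairs were concentrated at 2 to 2.5 kb, with 111 pairs, and at 6.5 to 7 kb, with 190 pairs, in each case with all pairs in the same direction. Of the 1645 pairs of neighbouring sites within 10 kb, 382 joined sites of the first group, 276 a site of the first and one of the second, 195 the first and the third, and 183 the first and the fourth. Pairs within the second group were found 2 times, and none within the third or the fourth.

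**Figure D5:**
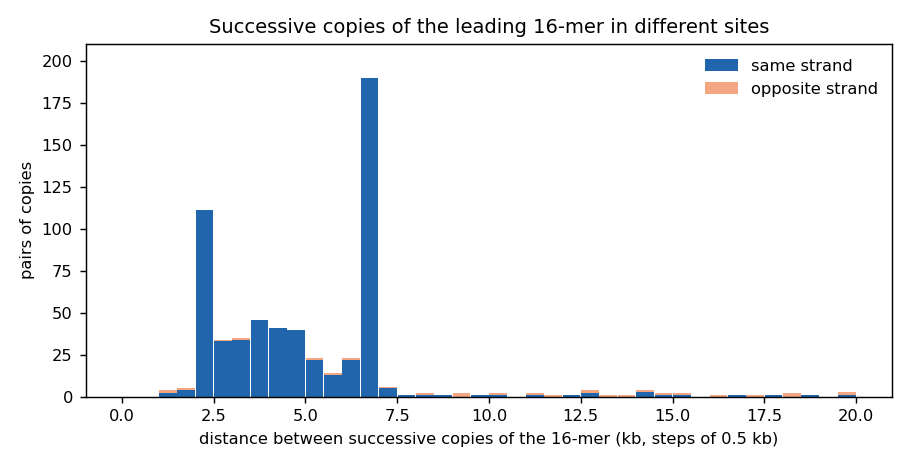
Number of pairs of successive copies of the leading word in different sites (y axis), whether or not other sites stood between them, against the distance between the copies in kb, in steps of 0.5 kb, with pairs in the same direction (blue) and in opposite directions (orange). The peaks at 2 to 2.5 kb (111 pairs) and 6.5 to 7 kb (190 pairs) are of the same direction, and few pairs lie from 7 to 20 kb.

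In genes, copies of the leading word lay mostly against the direction of transcription. Of the 525 copies in the sites that fell within a single annotated gene, 130 (24.8%, interval 21.1 to 28.7%) were in the direction of the gene and 395 against it. The share was 25.7% of 1290 for all autosomal copies in a single gene, and 25.6% of 602 for copies with KAP1 in both lines and no ZFP57.

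The largest clusters held 5 or 6 sites each. The cluster of 6 sites, 9.0 kb long at chr14:110755501-110764500, lay 390 kb from a TSS of Slitrk6, which encodes a neuronal membrane protein, in sites of 300 to 600 bp. The 5 sites at Qrsl1 spanned 12.2 kb at chr10:43597051-43609200. The 5 sites at Zcwpw1 spanned 3.45 kb at chr5:138253501-138256950 and shared 1 KAP1 peak in JB1 and 1 in BJ1. The remaining clusters of 5 lay near Cntnap5b, Odz2, Slitrk5, B3galnt1, Eif2ak1 and Plod2, over 4.65 to 17.2 kb, and 2 to 4 different sets of JB1 KAP1 peaks covered the sites of each.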

How the data were processed

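Chromatin of JB1 and BJ1 was precipitated by the authors with antibodies against ZFP57 and KAP1, 1 library each, and sequenced as single-end reads of 50 bp. Per the labels and the study's methods, reads were processed with CASAVA 1.8.2, aligned to mm9 with Bowtie 0.12.7, allowing up to 2 mismatches, and handled with SAMtools 0.1.18 and bedtools 2.14.3-1, and peaks were called with MACS in each library separately. The deposited lists hold positions only; peak score, depth and the treatment of reads with several alignments are not given in the sources used here. The 2 input libraries were not used here.

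Overlaps of at least 1 bp, exact matches of TGCCGC on both strands, the most frequent 16-base words (both strands, taken in turn until under 100 sites) and 50-base words occurring once were computed on the NCBIM37 (mm9) sequence. Gene context was assigned from GENCODE M1 in the order promoter (TSS within 1 kb of the peak), coding sequence, untranslated region, other exon, intron, intergenic. KAP1 widths are summed over the KAP1 peaks of a line at a site. Intervals are exact Clopper-Pearson 95% intervals and cover counting error only. No test was run, since each line and antibody has 1 library and sites are not replicates. The members and gene lists were chosen with earlier results of these data known. Sites and genes named were taken from the 10 widest sites, the genes and clusters with most sites (10 each by the rule, given as all with 5 or more because of ties), list genes within 10 kb, the sites with most hexamers, the most unequal KAP1 widths and the sites nearest the limits of the rule; others are marked as picked after their values were seen. Alternatives were other overlap rules, narrower lists, windows, distances, motif definitions and word lengths, and subsets of sites. Overlap classes, clustering, pairs of hexamers and word counts were checked on simulated data, and gene context was not. Python 3.11.15 was used with numpy 2.4.6, pandas 2.3.3, scipy 1.17.1, numba and matplotlib 3.10.9.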

Additional observations from a re-analysis of the deposited data

Results flagged for a closer look

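On the sex chromosomes, which the rule leaves out, 347 of 836 JB1 ZFP57 peaks had KAP1 in both lines and no BJ1 ZFP57 peak, and 334 of these were on chromosome X. They drew attention as peaks outside the comparisons above.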

How the results depend on the processing

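Of 59 alternatives, 29 kept the value within the interval of the reported one (counts within 1.5 times) and 30 did not. Counting each JB1 KAP1 peak once turned the balance of widths that differed by 1.5 times: JB1 was wider at 14.9% and BJ1 at 9.88% of sites, but JB1 at 3.89% and BJ1 at 12.6% of peaks. The number of sites was 3140 when the widest 50% of each list was used, which shortens every list. By subset, chosen after the data were seen, sites without the leading word had median KAP1 widths of 1800 bp in JB1 and 1650 bp in BJ1, TGCCGC in 55.6% and a neighbour within 10 kb in 50.0%. Sites of unique 50-base words had KAP1 medians of 750 and 600 bp, TGCCGC in 84.0%, a neighbour in 7.64%, an intergenic position in 41.7% and a promoter in 9.03%.

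By definition, the share of sites at a promoter was 3.95% within 2.5 kb, 1.11% within 0.5 kb and 0.801% for protein-coding genes only. The share with a neighbour was 45.8% within 5 kb and 61.4% within 50 kb. TGCCGC was found in 68.0% of central 300-bp windows, and TGCCGC or GGCCGC in 85.9%. Pairs of hexamers less than 25 bp apart were 6.30%. BJ1 KAP1 was 2 times as wide as that of JB1 at 4.83% of sites. Words of 20 and 24 bases were shared by 45.5 and 45.0% of sites. With sites within 50 kb of the gene, the lists gave 20.8% of pluripotency genes, 56.2% of 2-cell genes, 19.1% of Zfp genes, 20.5% of Hox genes and 32.0% of protocadherin genes, against 16.1% of all protein-coding genes; with sites in the gene body only, 0.0% of 2-cell genes and 3.09% of Zfp genes, against 2.97%. Within 10 kb and in the body, the interval of the 2-cell genes held the share of all genes. Within 50 kb it did not: the value stands for 9 of 16 genes, with an interval of 29.9 to 80.2%. Genes that lie close together can count the same site, so they are not independent.

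Depth limits the lists in ways that cannot be measured here: with 1 library per line and antibody and no read counts, a missing BJ1 ZFP57 peak, a narrower KAP1 peak and a shallower library cannot be told apart. Peak edges are known to 150 bp. The copies of a repeated sequence share their sequence and are not independent observations. JB1 and BJ1 KAP1 widths were compared at the same site or the same JB1 KAP1 peak, and no paired test was run.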
